A study of Mus musculus with 4 samples.

Results

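The antioxidant, glutathione and NRF2 genes are a named list of 44 genes that control, carry out or feed the handling of reactive oxygen and electrophiles, among them 4 subunit genes of the phagocyte enzyme that makes superoxide. A gene counted as measured when a probe bearing one of its RefSeq accessions stood well above background on each array of one group or the other. By this rule 43 of the 44 were measured, among 24067 genes tested in all. Gsta1 matched no probe and is not analysed here. All 43 were well above background on all 4 arrays, so none entered through 1 group alone. The cells were primary Kupffer cells (liver-resident macrophages), obtained from male C57BL/6 mice aged 8 weeks by collagenase perfusion and a Percoll gradient. They were kept for 24 h in RPMI medium with 0.1% serum and either 200 nM maresin 1 (MaR1), which macrophages form from docosahexaenoic acid as a lipid signal in the resolution of inflammation, or its ethanol vehicle (Veh). Each group had 2 one-colour arrays. Whether these were separate cultures or mice is not stated in the labels, and the p-values rest on a spread between arrays that may be technical only. All 4 arrays lay on 1 slide, vehicle at positions 1 and 2 and maresin 1 at positions 3 and 4, so position and treatment cannot be told apart.

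NRF2, the product of Nfe2l2, is a transcription factor that KEAP1 marks for degradation until oxidants or electrophiles modify KEAP1. NRF2 then pairs with small MAF proteins, binds antioxidant response elements and raises genes of glutathione synthesis, thioredoxin reduction, NADPH supply and conjugation, while BACH1 competes for the same elements as a repressor. In macrophages much of the oxidant comes from the NADPH oxidase, whose superoxide is turned into hydrogen peroxide by superoxide dismutases and removed by catalase, glutathione peroxidases and peroxiredoxins.

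More of these genes fell than rose with maresin 1. By limma at an adjusted p under 0.05, 16 of the 43 measured members fell (37.2%, beside 12.7% of all genes tested), 2 rose (4.65%, beside 11.2%) and 25 did not pass. The members were chosen with earlier results of these data known, so such shares describe the list and do not test it. The median log2 difference, maresin 1 minus vehicle, was -0.21 over the members and -0.02 over all genes, and 32 members (74.4%) lay below 0, as did 52.7% of all genes. Both maresin 1 arrays were below both vehicle arrays for 28 members and above them for 8, as was so for 36.8% and 32.7% of all genes. The gene of catalase, 4 genes of glutathione transferases (Gsta3, Gstm1, Gstm2 and Gstm5), the oxidase gene Cybb and the peroxidase gene Gpx2 fell by between 1.55-fold and 1.93-fold. These 7 kept their call without each of the 4 arrays in turn. The genes that rose were Sod3 and Prdx4. Without vehicle replicate 1, vehicle replicate 2 or maresin 1 replicate 2 the members called lower numbered 7, and without maresin 1 replicate 1 they numbered 8, while the share of all genes called lower was then between 3.80% and 6.19%. With 1 array left out, 1 member (Sod3) was called higher. With no filter on dim probes 10 members were called lower.

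**Figure D1:**
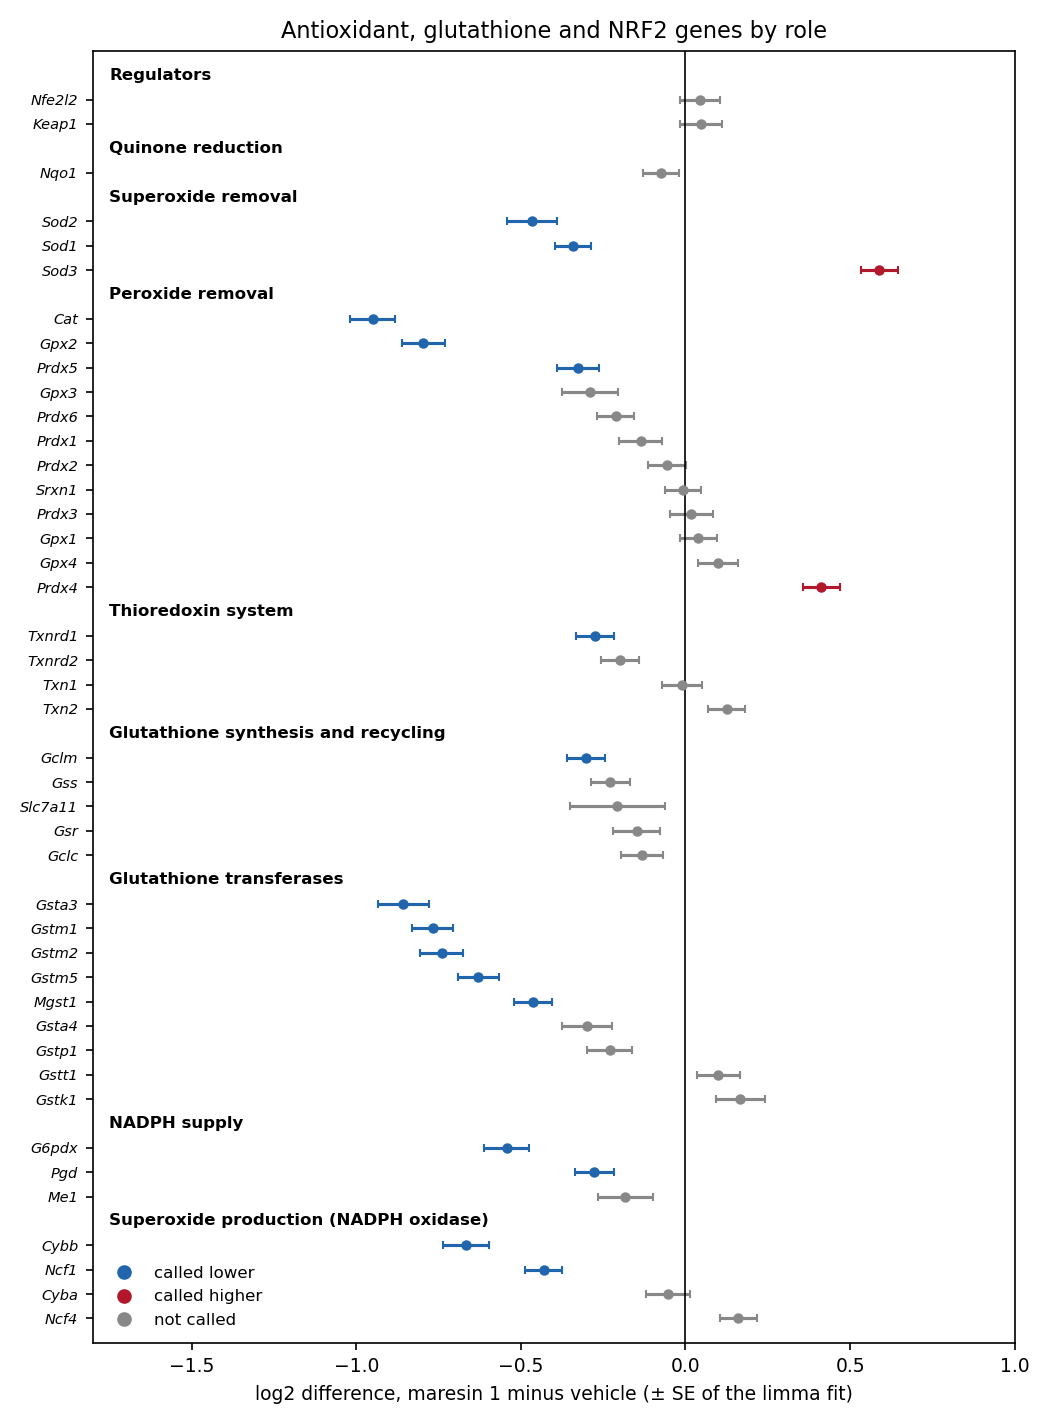
Log2 difference between maresin 1 and vehicle for the 43 measured members, grouped by role. Points are limma estimates and bars their SE (n = 2 arrays per group), coloured by whether the member was called lower (16), higher (2) or not called (25).

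**Figure D2:**
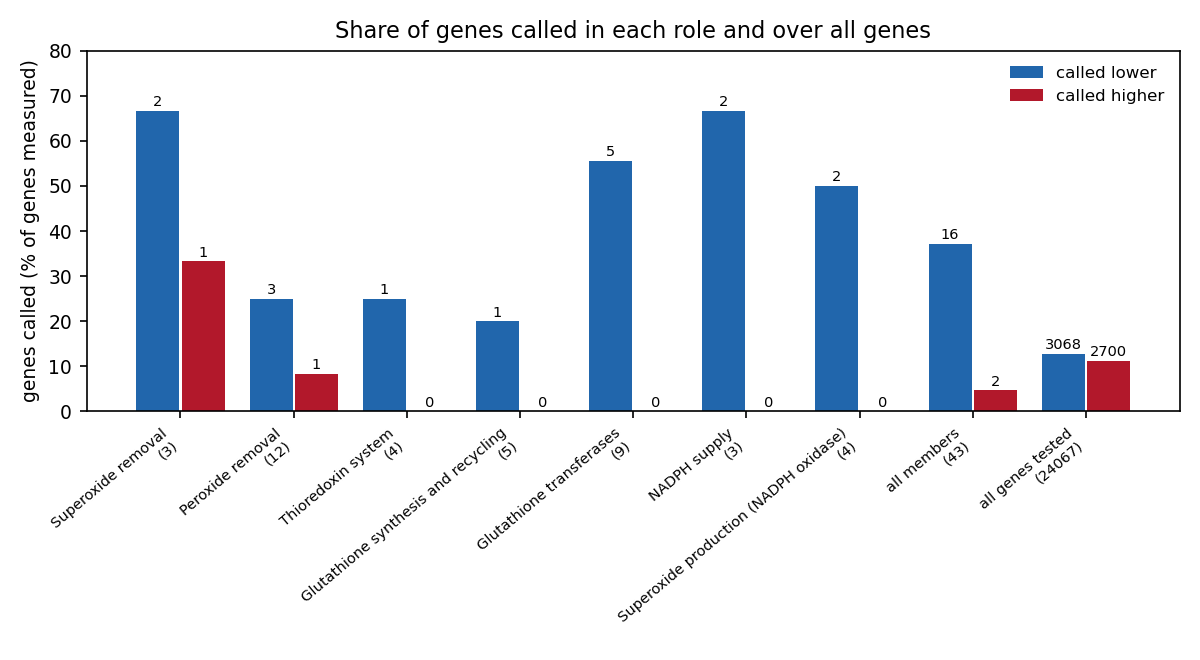
Percent of measured genes called lower or higher in each role with at least 3 measured members, in all members and in all 24067 genes tested; the count of genes is over each bar and the number measured in brackets. Of all members 37.2% were lower and 4.65% higher, against 12.7% and 11.2% of all genes. The members were chosen with earlier results of these data known.

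Arrays of a group correlated at 0.998 over the tested genes and arrays of different groups at 0.990 to 0.991, and 54.4% to 55.6% of probes were well above background. The marker counts that follow are to be read beside the 12.7% of all genes called lower and the 11.2% called higher. All 10 Kupffer cell and macrophage markers were measured. Among them Csf1r rose, a call lost whichever array was left out (adjusted p up to 0.173), Adgre1 fell and kept its call, and their summed level was 10.2 and 10.1 with vehicle and 10.1 and 10.1 with maresin 1. Of 9 measured dendritic cell markers 7 rose (median 0.73, summed level 5.66 and 5.56 with vehicle and 6.21 and 6.22 with maresin 1), and 4 of these kept their call without each array in turn. Of 10 endothelial markers 4 rose and 1 fell (median 0.02), with 1 rise and 0 decreases kept. Of 9 T and NK cell markers 2 rose and 4 fell (median -0.22, summed level 5.05 and 5.00 with vehicle and 5.82 and 5.99 with maresin 1), with both rises and 0 decreases kept. Of these 9, 7 lay below 0, and the sum follows mainly Gzma (4.27 and 4.19 with vehicle, 5.49 and 5.70 with maresin 1). Among the dendritic cell markers, 2 lay below 0 and did not pass, Flt3 (-0.28 ± 0.07) and Siglech (-0.28 ± 0.09). The rise of the dendritic cell sum follows mainly Batf3 (2.73 and 2.74 with vehicle, 4.59 and 4.65 with maresin 1). Summed levels follow mainly the brightest probes of a list, further below Acta2 for stellate cells and Ly6c2 for neutrophils and monocytes. Of 6 B cell markers 3 rose, 2 of them kept, and of 3 erythroid markers 3 rose and 0 were kept. In bulk RNA, fewer cells of a type and less RNA per cell cannot be told apart, and the part of a changed cell makeup in the values below was not tested.

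Levels below are log2 of the processed signal relative to the array's 75th percentile. They belong to 1 probe each and cannot be set against the level of another gene. Differences are maresin 1 minus vehicle and carry the SE that limma gives (n = 2 arrays in each group), and adjusted p-values are from limma with Benjamini-Hochberg adjustment over the 24067 genes. Counts of called genes below are to be read beside the 12.7% of all genes called lower and the 11.2% called higher. At an unadjusted p under 0.05 by limma, 5322 of the 24067 genes were lower and 4470 higher, so counts at that cut are to be read beside these.

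The promoters were searched for the antioxidant response element, since it is the sequence through which NRF2 and BACH1 act. RefSeq windows of GRCm38.p6, from 250 bases before to 50 after a start site, were at hand for 38 members. The core TGACNNNGC, on either strand, was present for 12 of these 38 genes (31.6%) and for 14.0% of the 27025 genes in the table. Over all 32851 windows of 300 bases the share was 12.4%. Of the 16 members called lower 8 held a match, and of the 22 other members with a window 4 did. Of the 7 that kept their call without each array in turn 2 held a match, Gsta3 and Gstm5, and with 1 array left out 2 or 3 of the 7 or 8 called lower did (3 of 8 without maresin 1 replicate 1). A match describes these letters only, and sequence outside the window was not searched. The matches of the 8 members called lower are shown because these genes moved the same way. They run 5′ to 3′ on the strand of the gene, with the core in capitals; where it lies on the opposite strand, the capitals are its reverse complement.
Gclm (chr3:122245377-122245477, plus strand): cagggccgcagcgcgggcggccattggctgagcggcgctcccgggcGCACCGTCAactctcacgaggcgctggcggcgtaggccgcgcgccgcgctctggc
Txnrd1 (chr10:82859068-82859168, plus strand): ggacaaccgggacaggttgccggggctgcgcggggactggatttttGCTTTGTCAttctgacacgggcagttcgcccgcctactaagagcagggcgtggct
G6pdx (chrX:74428883-74428983, minus strand): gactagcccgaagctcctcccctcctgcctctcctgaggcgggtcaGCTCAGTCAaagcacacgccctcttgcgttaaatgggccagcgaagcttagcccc
Pgd (chr4:149166062-149166088, minus strand): tttcagagcTGACATTGCactgatcgg
Sod1 (chr16:90220660-90220760, plus strand): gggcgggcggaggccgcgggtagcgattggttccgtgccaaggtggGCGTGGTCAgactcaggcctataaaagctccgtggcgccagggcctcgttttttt
Gstm5 (chr3:107895766-107895853, plus strand): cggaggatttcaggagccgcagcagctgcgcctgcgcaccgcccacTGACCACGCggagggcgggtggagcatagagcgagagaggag
Gsta3 (chr1:21240418-21240518, plus strand): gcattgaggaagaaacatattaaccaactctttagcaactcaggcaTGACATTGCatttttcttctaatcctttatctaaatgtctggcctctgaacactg
Mgst1 (chr6:138140425-138140525, plus strand): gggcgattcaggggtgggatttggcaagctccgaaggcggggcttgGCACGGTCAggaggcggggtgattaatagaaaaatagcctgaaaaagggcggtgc

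The 4 members with a match that were not called lower, the gene of NRF2 itself among them, are shown for contrast in the same form.
Nfe2l2 (chr2:75704849-75704913, minus strand): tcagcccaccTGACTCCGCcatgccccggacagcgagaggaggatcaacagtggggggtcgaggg
Prdx1 (chr4:116685420-116685520, plus strand): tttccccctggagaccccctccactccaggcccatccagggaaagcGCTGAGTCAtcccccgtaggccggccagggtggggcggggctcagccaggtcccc
Srxn1 (chr2:152105543-152105569, plus strand): cagtgggcaGCTAGGTCAgagtgagac
Me1 (chr9:86695903-86695929, minus strand): atgccgccgTGACTCAGCgcttctcgc

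The AP-1 motif TGACTCA lies within the match in 2 of the 12, those of Prdx1 and Me1. Differences of the 8 genes in the first set ran from -0.27 (Txnrd1) to -0.86 (Gsta3). Cat, Gpx2, Gstm1, Gstm2 and Cybb, which fell further than most of them, held no match in their windows.

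The regulators were not called. Nfe2l2 stood at 4.51 and 4.60 with vehicle and 4.60 and 4.60 with maresin 1 (0.04 ± 0.06, adjusted p = 0.617). Keap1 stood at 2.53 and 2.44 with vehicle and 2.54 and 2.52 with maresin 1 (0.05 ± 0.06, adjusted p = 0.611). The groups overlapped in both genes, and both values were below 0 with quantile normalization. NRF2 is controlled chiefly as a protein, which arrays do not measure. Nqo1, the quinone reductase gene often used as a readout of NRF2, stood at 1.22 and 1.23 with vehicle and 1.13 and 1.17 with maresin 1, with groups that did not overlap and a difference that did not pass (-0.07 ± 0.06, adjusted p = 0.372).

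Of the 3 superoxide dismutase genes 2 fell and 1 rose. Sod1, the gene of the cytosolic copper-zinc enzyme, stood at 6.35 and 6.33 with vehicle and 6.00 and 6.00 with maresin 1 and fell by 0.34 ± 0.05 on the log2 scale (adjusted p = 0.0207). Sod2, the gene of the mitochondrial manganese enzyme, stood at 1.79 and 1.87 with vehicle and 1.29 and 1.44 with maresin 1 and fell by 0.47 ± 0.08 on the log2 scale (adjusted p = 0.0224). Sod3, the gene of the secreted enzyme, stood at -1.48 and -1.48 with vehicle and -0.92 and -0.86 with maresin 1 and rose by 0.59 ± 0.06 (adjusted p = 0.00749). The groups did not overlap in any of the 3. Sod3 kept its call without each array in turn (adjusted p up to 0.0455), whereas the calls of Sod1 and Sod2 were lost whichever of the 4 arrays was left out (up to 0.103 and 0.0953), and that of Sod2 when dim probes were not filtered (0.0594).

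Among 12 measured genes of peroxide removal, 3 fell, 1 rose and 8 did not pass, with a median of -0.10. Of all genes tested 12.7% fell and 11.2% rose. Cat, the gene of the peroxisomal enzyme catalase, stood at 2.57 and 2.67 with vehicle and 1.70 and 1.63 with maresin 1, a difference of -0.95 ± 0.07 (1.93-fold lower, adjusted p = 0.00463). It had the largest decrease of the list, and the groups did not overlap. Gpx2, a glutathione peroxidase gene best known from gut epithelium, stood at -3.20 and -3.28 with vehicle and -4.08 and -4.00 with maresin 1 and fell by 0.80 ± 0.07 on the log2 scale (adjusted p = 0.00565). Its groups did not overlap either, and with normexp background correction its value was -0.42, still called. Prdx5, a peroxiredoxin gene whose product is found in mitochondria and peroxisomes, stood at 6.45 and 6.42 with vehicle and 6.16 and 6.06 with maresin 1 and fell by 0.33 ± 0.06 on the log2 scale (adjusted p = 0.0324). Prdx4, the gene of the peroxiredoxin of the endoplasmic reticulum, stood at 2.38 and 2.34 with vehicle and 2.79 and 2.76 with maresin 1 and rose by 0.41 ± 0.06 (adjusted p = 0.0153). In both, the groups did not overlap, but the calls were lost whichever of the 4 arrays was left out (adjusted p up to 0.137 and 0.0787), and that of Prdx5 when dim probes were not filtered (0.0594).

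The other peroxide genes lay between -0.29 and 0.10 and did not pass. Gpx1, the gene of the main cytosolic glutathione peroxidase, had a difference of 0.04 ± 0.06. Gpx4, whose enzyme reduces lipid peroxides in membranes, had one of 0.10 ± 0.06, and both were below 0 with quantile normalization. The peroxiredoxin genes Prdx1 (-0.14 ± 0.07), Prdx2 (-0.05 ± 0.06) and Prdx3 (0.02 ± 0.06) did not pass, and the dimmest of the 3 Prdx1 probes gave -0.27. Srxn1 had a difference of -0.01 ± 0.06 and is the gene of sulfiredoxin, which repairs over-oxidised peroxiredoxins. Gpx3 (-0.29 ± 0.08, adjusted p = 0.0756), the gene of the secreted peroxidase, and Prdx6 (-0.21 ± 0.06, adjusted p = 0.0624) were nearest to the threshold. Prdx6 passed with quantile normalization (adjusted p = 0.0217) and Gpx3 with normexp (0.0101). Of the 9 alternatives that used all 4 arrays, Prdx6 passed in 3 and Gpx3 in 2, and neither passed with any array left out.

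In the thioredoxin system 1 of 4 genes fell and 0 rose (2 and 0 at an unadjusted p under 0.05). Txnrd1, the gene of cytosolic thioredoxin reductase and a textbook NRF2 target, stood at 4.81 and 4.85 with vehicle and 4.58 and 4.54 with maresin 1 and fell by 0.27 ± 0.06 on the log2 scale (adjusted p = 0.0383). The groups did not overlap, and its other probe gave -0.33. The call was lost whichever of the 4 arrays was left out (adjusted p up to 0.162), with median centring (0.0616) and when dim probes were not filtered (0.0594). The mitochondrial reductase gene Txnrd2 had a difference of -0.20 ± 0.06 (adjusted p = 0.0745) and passed with quantile normalization (0.0445). It passed in 4 of the 9 alternatives that used all 4 arrays, and not with any array left out. The thioredoxin genes Txn1 (-0.01 ± 0.06) and Txn2 (0.12 ± 0.06) did not pass.

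All 5 genes of glutathione synthesis and recycling had values below 0, as did 52.7% of all genes. Of the 5, 1 fell and 0 rose (2 and 0 at an unadjusted p under 0.05). Gclm, the gene of the modifier subunit of glutamate-cysteine ligase, which takes the rate-limiting step, stood at 3.36 and 3.41 with vehicle and 3.10 and 3.06 with maresin 1 and fell by 0.30 ± 0.06 on the log2 scale (adjusted p = 0.0311). Its groups did not overlap, but the call was lost whichever of the 4 arrays was left out (adjusted p up to 0.138) and when dim probes were not filtered (0.0594). The catalytic subunit gene Gclc (-0.13 ± 0.06, adjusted p = 0.199), the glutathione synthetase gene Gss (-0.23 ± 0.06, adjusted p = 0.0621) and the glutathione reductase gene Gsr (-0.15 ± 0.07, adjusted p = 0.201) did not pass. Gss passed with quantile normalization (0.0377) and in 4 of the 9 alternatives that used all 4 arrays, but not with any array left out. Slc7a11, whose product imports cystine, stood at -3.44 and -3.24 with vehicle and -3.38 and -3.72 with maresin 1 and was the member with the largest SE (-0.21 ± 0.14). Its groups overlapped.

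Glutathione transferases attach glutathione to electrophiles, and their genes held the most decreases. Of 9 measured, 5 fell, 0 rose and 4 did not pass (7 lower and 0 higher at an unadjusted p under 0.05), with a median of -0.46. Gsta3, of the alpha class, stood at -0.35 and -0.19 with vehicle and -1.15 and -1.11 with maresin 1 (-0.86 ± 0.08, 1.81-fold lower, adjusted p = 0.00666). Gstm1, of the mu class, stood at 2.40 and 2.36 with vehicle and 1.65 and 1.57 with maresin 1 (-0.77 ± 0.06, 1.70-fold lower, adjusted p = 0.00554). The other probes of these genes gave -0.68 and -0.79. Gstm2 stood at -1.37 and -1.31 with vehicle and -2.13 and -2.03 with maresin 1 and fell by 0.74 ± 0.07 on the log2 scale (adjusted p = 0.00636). Gstm5 stood at 0.46 and 0.54 with vehicle and -0.14 and -0.12 with maresin 1 and fell by 0.63 ± 0.06 on the log2 scale (adjusted p = 0.00782), and its other probe gave -0.70. The groups were apart in all 4 genes, and each kept its call without each array in turn (adjusted p up to 0.0459). Mgst1, the gene of a microsomal transferase with peroxidase activity, stood at 4.21 and 4.15 with vehicle and 3.73 and 3.70 with maresin 1 and fell by 0.46 ± 0.06 on the log2 scale (adjusted p = 0.0127). The groups did not overlap, but this call was lost whichever of the 4 arrays was left out (adjusted p up to 0.0702). Gsta4 (-0.30 ± 0.08, adjusted p = 0.0558), Gstp1 (-0.23 ± 0.07, adjusted p = 0.0801), Gstt1 (0.10 ± 0.07) and Gstk1 (0.17 ± 0.07) did not pass. Gstp1 passed with quantile normalization (adjusted p = 0.0465), and Gsta4 where probes had to be well above background on all 4 arrays (0.0459). Of the 9 alternatives that used all 4 arrays, Gstp1 passed in 4 and Gsta4 in 3, and neither passed with any array left out.

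The 7 mu class genes lie next to one another in the RefSeq annotation of GRCm38.p6, with 0 other protein-coding genes between them. All 6 that were measured fell, with differences from -0.77 to -0.63. Those outside the list of members were Gstm3 (-0.75 ± 0.10), Gstm4 (-0.72 ± 0.12) and Gstm6 (-0.68 ± 0.08). Each of these 3 calls was lost without vehicle replicate 1 or vehicle replicate 2 (adjusted p up to 0.0590, 0.0890 and 0.0571) and when dim probes were not filtered, and that of Gstm4 also without maresin 1 replicate 2 (0.0539). The other probe of Gstm6 gave 0.26 ± 0.24, and the mean of its probes did not pass (-0.21, adjusted p = 0.364). Gstm7 did not pass the filter on dim probes. Genes of this class are alike in sequence, so a probe may also capture RNA of a neighbour, and the 6 values are uncertain to that extent. In the pi class, Gstp1, Gstp2 (-0.12 ± 0.06) and Gstp3 (-0.20 ± 0.07) did not pass. In the theta class, Gstt2 fell by 0.44 ± 0.06 on the log2 scale and Gstt3 rose by 0.38 ± 0.07, and both calls were lost whichever of the 4 arrays was left out (adjusted p up to 0.0803 and 0.110). Gstt4, well above background on neither vehicle array (measured mean -6.09, against -4.68 with maresin 1), was at least 1.85-fold higher with maresin 1 under the processing as reported. That bound holds for this processing only, and across the alternatives the log2 difference of Gstt4 was as low as 0.40. Gstt4 entered through the maresin 1 group alone, so no test is given for it. Gstm4, Gstt2, Gstp2 and Gstp3 were named after their values were seen.

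**Figure D3:**
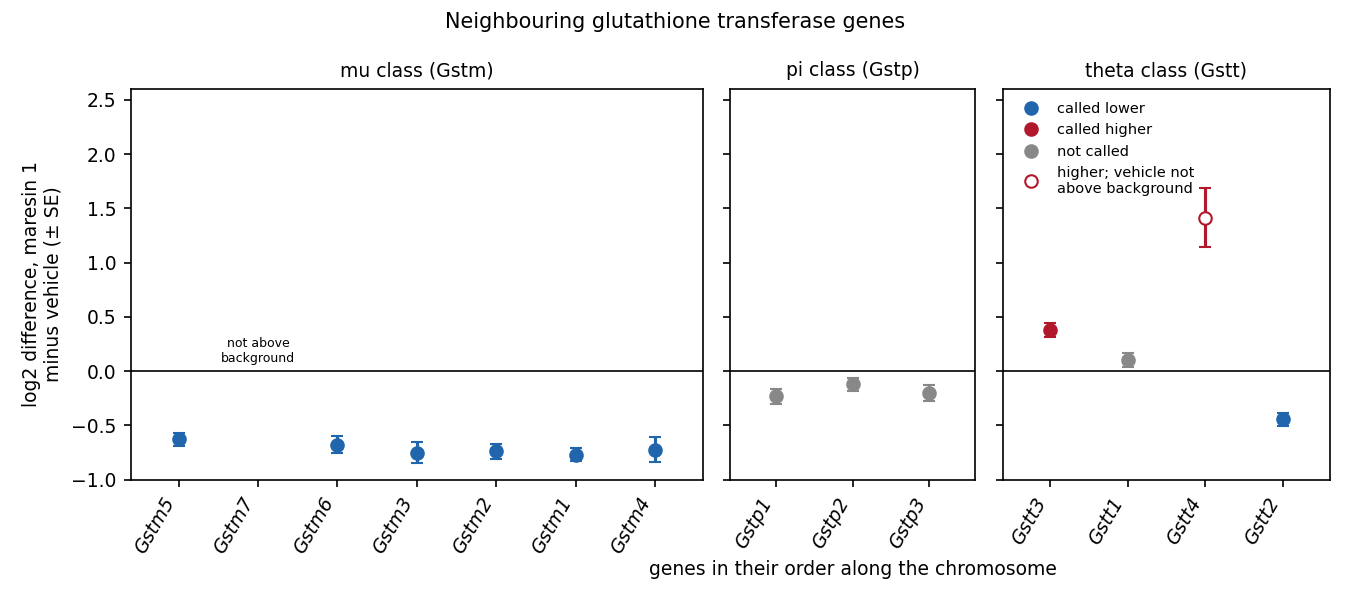
Log2 difference between maresin 1 and vehicle, with bars for the SE from limma (n = 2 arrays in each group), for mu, pi and theta class transferase genes in their order along the chromosome. The 6 measured mu class genes lie between -0.77 and -0.63, and the theta class genes on both sides of 0; the open circle is the fitted value of Gstt4, for which only a bound and no test is given.

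Hepatocytes are rich in glutathione transferases, so hepatocyte markers were read on the same arrays. Of 13 measured hepatocyte markers 2 fell (Ttr and Hnf4a) and 0 rose, beside 12.7% and 11.2% of all genes. At an unadjusted p under 0.05 by limma, 6 were lower and 1 higher, beside 5322 and 4470 of all 24067 genes. The median of the 13 was -0.27, and 12 of them lay below 0, as did 52.7% of all genes. Both maresin 1 arrays were below both vehicle arrays for 11 and above them for 1. This was so for 36.8% and 32.7% of all genes. Hnf4a kept its call without each array in turn, and Ttr lost it whichever was left out (adjusted p up to 0.0940). Their summed level was 5.35 and 5.27 with vehicle and 5.11 and 5.10 with maresin 1. The albumin gene Alb had a difference of -0.23 ± 0.09 (adjusted p = 0.125), and Cps1 and Pck1 were well above background on 0 of the 4 arrays. Of 8 measured stellate cell and fibroblast markers 2 fell (Dcn and Reln) and 0 rose (3 and 0 at an unadjusted p under 0.05). All 8 lay below 0, with a median of -0.36. Both calls were lost whichever array was left out (adjusted p up to 0.0890 and 0.0690). Their summed level was 5.36 and 5.35 with vehicle and 5.29 and 5.25 with maresin 1, and Lrat and Des were well above background on 0 of the 4 arrays. The part of these cells in the transferase values was not tested.

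NADPH, the reductant behind glutathione and thioredoxin recycling, comes largely from the pentose phosphate pathway, and 2 of 3 genes of its supply fell while 0 rose (2 and 0 at an unadjusted p under 0.05). G6pdx, the gene of the first enzyme of that pathway, stood at 3.49 and 3.52 with vehicle and 3.02 and 2.90 with maresin 1 (-0.54 ± 0.07, 1.46-fold lower, adjusted p = 0.0131). Pgd, the gene of the other enzyme of the pathway that forms NADPH, stood at 4.57 and 4.57 with vehicle and 4.33 and 4.26 with maresin 1 and fell by 0.28 ± 0.06 on the log2 scale (adjusted p = 0.0389). In neither gene did the groups overlap. The malic enzyme gene Me1 had a difference of -0.18 ± 0.08 (adjusted p = 0.184). The call of Pgd was lost whichever of the 4 arrays was left out (adjusted p up to 0.155), with median centring (0.0605) and when dim probes were not filtered (0.0594). The call of G6pdx was lost without vehicle replicate 1, vehicle replicate 2 or maresin 1 replicate 2 (up to 0.0640) and when dim probes were not filtered (0.0540).

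Of the 4 NADPH oxidase members 2 fell and 0 rose (2 and 1 at an unadjusted p under 0.05). Cybb, the gene of the catalytic membrane subunit gp91phox, stood at 2.35 and 2.48 with vehicle and 1.74 and 1.76 with maresin 1 (-0.67 ± 0.07, 1.59-fold lower, adjusted p = 0.00877). Its groups did not overlap, its other probe gave -0.75, and the call held without each array in turn (adjusted p up to 0.0496). Cyba, the gene of its membrane partner p22phox, stood at 7.77 and 7.73 with vehicle and 7.75 and 7.64 with maresin 1, with overlapping groups (-0.05 ± 0.07). Ncf1, the gene of the cytosolic organiser p47phox, stood at 2.25 and 2.20 with vehicle and 1.80 and 1.79 with maresin 1 and fell by 0.43 ± 0.06 on the log2 scale (adjusted p = 0.0139). Its groups did not overlap, but its probes disagreed. A dimmer probe for a coding transcript gave -0.63, and a dim one for a non-coding transcript gave 0.51 ± 0.09 (adjusted p over probes = 0.0242). The mean of the probes did not pass (-0.18, adjusted p = 0.0910), and the call was lost whichever of the 4 arrays was left out (up to 0.0769). Ncf4, the gene of p40phox, had a difference of 0.16 ± 0.06 (adjusted p = 0.109).

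Of the oxidase genes outside the members, the GTPase gene Rac2 (-0.31 ± 0.06, adjusted p = 0.0294) and the organiser gene Noxo1 (-0.45 ± 0.08, adjusted p = 0.0303) fell. Neither kept its call without each array in turn (adjusted p up to 0.129 and 0.111). Rac1 (0.10 ± 0.06), Cybc1 (0.16 ± 0.06) and Hvcn1 (-0.21 ± 0.08) did not pass, and were named after their values were seen. Neutrophils and monocytes also express the phagocyte oxidase. Of their 8 measured markers 1 fell (Ccr2) and 0 rose (1 and 0 at an unadjusted p under 0.05). Ccr2 had a difference of -0.70 ± 0.06 (adjusted p = 0.00549), and of -0.72 to -0.53 across the alternatives. The 8 markers had a median of -0.11 and a summed level of 7.38 and 7.37 with vehicle and 7.37 and 7.24 with maresin 1. The part of these cells in the oxidase values was not tested.

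**Figure D4:**
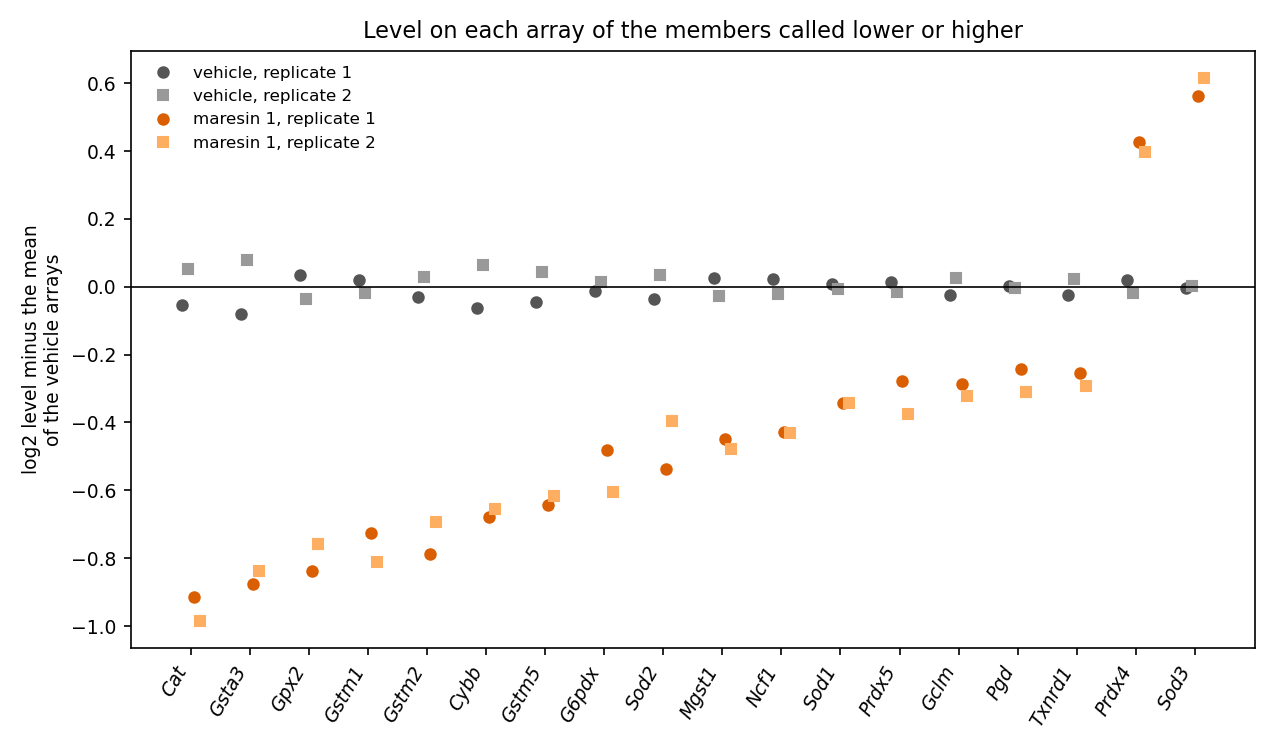
Level of the 18 called members on each of the 4 arrays, as log2 level minus the mean of the gene's vehicle arrays. In each member both maresin 1 arrays lie on the same side of both vehicle arrays, from Cat with the largest decrease to Sod3 with the largest increase.

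Among 99 pathway genes outside the members that were measured in both groups, 29 fell (29.3%, beside 12.7% of all genes) and 10 rose (10.1%, beside 11.2%). Of these, 5 of the 29 and 4 of the 10 kept their call without each array in turn. This list too was chosen with earlier results of these data known, so its shares are descriptive only. In KEAP1 and NRF2 control, 3 of 11 measured genes rose and 0 fell (3 and 2 at an unadjusted p under 0.05). Maff, a small MAF gene, stood at 0.44 and 0.44 with vehicle and 1.25 and 1.38 with maresin 1 and rose by 0.87 ± 0.07 (adjusted p = 0.00551). Bach1, the gene of the competing repressor, stood at 2.77 and 2.79 with vehicle and 3.37 and 3.60 with maresin 1 and rose by 0.71 ± 0.10 (adjusted p = 0.0152). The groups did not overlap in either. Mafk, another small MAF gene, rose by 0.38 ± 0.06 (adjusted p = 0.0201). Maff kept its call without each array in turn (adjusted p up to 0.0338). Bach1 lost it without vehicle replicate 1 (0.0673), without vehicle replicate 2 (0.0622) and when dim probes were not filtered (0.0594), and Mafk whichever of the 4 arrays was left out (up to 0.0998).

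Of 25 other NRF2-type target genes 13 fell and 0 rose (16 and 1 at an unadjusted p under 0.05), with a median of -0.30. Ephx1, the gene of an epoxide hydrolase that is also abundant in hepatocytes, stood at 3.60 and 3.58 with vehicle and 2.59 and 2.65 with maresin 1 (-0.96 ± 0.06, adjusted p = 0.00338). Abcc4, the gene of an efflux pump, fell by 0.68 ± 0.07 on the log2 scale (adjusted p = 0.00841), and Slc48a1, the gene of a haem transporter, fell by 0.57 ± 0.06 on the log2 scale (adjusted p = 0.0101). Ephx1 and Abcc4 were the 2 of these 13 that kept their call without each array in turn. Slc48a1 lost it without 2 of the 4 (adjusted p up to 0.0542). Hmox1, the gene of haem oxygenase 1 and named after its value was seen, stood at 6.90 and 6.87 with vehicle and 6.46 and 6.43 with maresin 1 and fell by 0.44 ± 0.06 on the log2 scale (adjusted p = 0.0132), a call lost whichever of the 4 arrays was left out (up to 0.0737). Among 16 other transferase genes measured in both groups 5 fell and 1 rose. Hpgds, the gene of the haematopoietic prostaglandin D synthase, had the largest decrease of them, -1.18 ± 0.10 (2.27-fold lower, adjusted p = 0.00565), and kept its call without each array in turn.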

How the data were processed

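Total RNA of the cultured cells was read on 4 Agilent arrays in a single colour (Cy3), 2 per group. The deposited scanner files hold intensity values, which the authors extracted with Agilent Feature Extraction 11.0.1.1, per the file headers; the submitters' processing notes name the same tool. A deposited series-wide file holds log2 values of 29710 probes with a median of 9.07 in each column. The labels do not state its scale or centring, and it served only as an alternative.

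Each processed signal was taken as log2 and set relative to the 75th percentile of its array's non-control spots (847 to 988 before log). Spots with an outlier mark (94 to 123 per array) were left out, 0 spots were saturated, and spots of a probe were averaged. A probe was kept (31128 in all) if well above background on each array of one group or the other. Probes were named by RefSeq accession through a table of GRCm38.p6, used for names and gene order (32994 of 56605 probes, 58.3%, had a symbol), and each gene was its brightest kept probe. A gene not above background in a group has only a bound there, set by its own signal or, where higher, by the lowest one that is well above background. The test was that of limma 3.58.1 (lmFit, eBayes; R 4.3.3), two-sided, Benjamini-Hochberg adjusted over 24067 genes at 0.05. The number of arrays limits the precision. The code was tested on simulated data. Promoters were searched with Python 3.11.15 and figures drawn with matplotlib 3.10.9.

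Alternatives were quantile normalization, median centring, normexp (offset 50, on the median spot signal), the deposited log2 values, other filters, the mean of a gene's probes, a variance trend, a replicate block and leaving out each array with the probe filter kept as set on all 4. Members past the threshold were given on every array, and of the other pathway genes up to 3 per list and direction were named by smallest p. Of the oxidase genes listed outside the members, 1 is not reported here. The members, lists and markers were chosen with earlier results of these data known.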

Additional observations from a re-analysis of the deposited data

How the results depend on the processing

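The number of members called lower was 16 as reported and 14 to 23 under the alternatives other than no filter on dim probes (10), the replicate block (11) and leaving out an array (7 to 8). The number called higher was 2, 3 with a variance trend, and 1 with any array left out. The share of all calls that were higher was 46.8% as reported and 59.6% with median centring, where 3499 genes were higher and 2367 lower against 2700 and 3068. All genes called higher and lower numbered 1087 and 972 with no filter, 4524 and 4672 with a variance trend, and 1009 to 1334 and 914 to 1489 without 1 array. Of the comparisons of single members with an alternative, 464 kept direction and side of the threshold, 53 lost a call, 22 gained one and 20 changed sign, none of the last from a called value. Deviations of same-numbered arrays from their group means correlated at -0.0292 across genes. With 2 arrays in each group this cannot show whether such arrays shared a culture or mouse. With the replicate number as a block, 1766 genes were higher and 1926 lower, and Sod1, Prdx5, Txnrd1, Gclm and Pgd were no longer called. Sign changes came with quantile normalization and the deposited log2 values for Nfe2l2 (-0.073 and -0.051), Gpx1 (-0.13 and -0.079), Gpx4 (-0.060 and -0.0019) and Prdx3 (-0.019 and -0.016), and with quantile normalization alone for Keap1 (-0.0028). With median centring they came for Prdx2 (0.0018), Srxn1 (0.049), Txn1 (0.047) and Cyba (0.0043), and with normexp for Txn1 (0.0060). Without 1 array the values ran from -0.00056 to 0.095 for Keap1, -0.032 to 0.068 for Prdx3, -0.027 to 0.011 for Srxn1, -0.050 to 0.030 for Txn1 and -0.11 to 0.00037 for Cyba. The causes were not tested. Slc7a11, measured by a dim probe, had the largest SE of the members (0.14), and probe sequences that could show cross-hybridisation among the mu class genes were not used here.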

Other observations

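Of 27 measured genes of peroxide and disulfide removal outside the members, 3 rose (11.1%, beside 11.2% of all genes), 6 fell (22.2%, beside 12.7%) and 18 did not pass by limma, with a median of -0.03. Aifm2, the gene of FSP1, which regenerates ubiquinol as a lipid antioxidant, stood at 2.67 and 2.63 with vehicle and 3.39 and 3.57 with maresin 1 and rose by 0.84 ± 0.08 (adjusted p = 0.00796), and its other probe gave 0.90. The groups did not overlap. Txndc17 (0.39 ± 0.07) and Gpx7 (0.26 ± 0.05), the latter a peroxidase gene of the endoplasmic reticulum, rose as well. The methionine sulfoxide reductase genes Msrb2 (-0.69 ± 0.06, adjusted p = 0.00576) and Msrb1 (-0.42 ± 0.06, adjusted p = 0.0147) and the sestrin gene Sesn1 (-0.57 ± 0.06, adjusted p = 0.00960) fell. Aifm2 and Msrb2 kept their call without each array in turn, Sesn1 lost it in 2 of those 4 fits (highest adjusted p 0.0542), and Txndc17, Gpx7 and Msrb1 lost it in all 4 (highest adjusted p 0.118, 0.159 and 0.0802).

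Of 14 measured genes of glutathione use and turnover, 3 rose (21.4%, beside 11.2% of all genes), 2 fell (14.3%, beside 12.7%) and 9 did not pass, with a median of 0.06. The aminopeptidase genes Lap3 (0.77 ± 0.08, adjusted p = 0.00775) and Anpep (0.66 ± 0.06, adjusted p = 0.00623), whose enzymes can split the cysteinyl-glycine left from glutathione, rose. Oplah, the gene of 5-oxoprolinase, which returns glutamate to the cycle, stood at 0.03 and 0.03 with vehicle and -0.66 and -0.72 with maresin 1 and fell by 0.73 ± 0.06 on the log2 scale (adjusted p = 0.00539). These 3 kept their call without each array in turn. Chac1, whose enzyme degrades glutathione, rose by 0.25 ± 0.06 (adjusted p = 0.0487), a call lost whichever of the 4 arrays was left out (up to 0.195). Hagh, the glyoxalase II gene, fell by 0.49 ± 0.08 on the log2 scale (adjusted p = 0.0197), a call lost without 3 of the 4 (up to 0.0887).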
